A study of Mus musculus with 4 samples.

Results

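Hmgcs1, Idi1, Sqle, Srebf2, Insig1, Nr1h3, Abca1 and Abcg1 are 8 genes of cholesterol synthesis, its control and its export, chosen by name out of 32285 genes in the deposited tables, and all 8 were present. They were followed by single-cell RNA sequencing through cells of mouse cortex late after stroke. All mice were male C57BL/6N mice aged 10 months. The 4 groups were sham surgery with an isotype control antibody, dMCAO stroke (occlusion of the distal middle cerebral artery) with the isotype control (stroke-isotype below), dMCAO stroke with anti-VCAM1 and dMCAO stroke with anti-VLA4, each antibody given for 10 weeks. VCAM1 is an adhesion molecule of activated endothelium, and VLA4 is the leukocyte integrin that binds it. Each group was 1 library from the pooled sensory cortex of 4 to 5 mice, with the infarct core and about 2 mm of cortex round it in the stroke groups, stained for CD31 and CD45 before loading. With 1 library per group no test across animals was possible. Every difference below is between libraries, and every 95% interval (exact Poisson for a level, conditional binomial for a ratio) covers counting error only.

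Cells build cholesterol from acetyl-CoA through the mevalonate pathway. Hmgcs1 makes HMG-CoA, Idi1 isomerises isopentenyl diphosphate further down, and Sqle forms squalene epoxide, the first oxygenated step of the sterol branch. The pathway is switched on by SREBP2, the product of Srebf2, which leaves the endoplasmic reticulum when sterols are low, and Insig1 holds it back when sterols are high. When sterols accumulate, their oxidised forms activate the liver X receptors (LXRα is encoded by Nr1h3), which raise the transporters Abca1 and Abcg1 that hand cholesterol to lipoprotein particles outside the cell. In brain, ApoE is the main carrier of that cholesterol, and phagocytes that clear myelin debris depend on export.

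Promoter stretches are shown for 3 genes of the sterol-sensing arm and for Abca1, because the comparisons below turn on these 4. They are the 150 bases before the RefSeq start site (GRCm38.p6), read 5′ to 3′ on the gene's strand. Capitals mark letters that match a sterol regulatory element (TCACNCCAC), a CCAAT box (CCAAT, or ATTGG where it lies on the other strand) or an E box (CACGTG).
Hmgcs1: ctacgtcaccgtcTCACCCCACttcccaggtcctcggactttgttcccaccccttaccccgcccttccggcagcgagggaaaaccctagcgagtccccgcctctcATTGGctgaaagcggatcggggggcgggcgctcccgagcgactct
Idi1: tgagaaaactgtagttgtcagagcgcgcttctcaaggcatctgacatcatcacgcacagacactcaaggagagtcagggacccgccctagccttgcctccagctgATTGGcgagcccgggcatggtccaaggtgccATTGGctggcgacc
Insig1: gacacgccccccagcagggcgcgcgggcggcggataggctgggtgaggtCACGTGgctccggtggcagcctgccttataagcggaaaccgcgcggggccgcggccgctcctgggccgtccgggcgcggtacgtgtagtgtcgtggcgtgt
Abca1: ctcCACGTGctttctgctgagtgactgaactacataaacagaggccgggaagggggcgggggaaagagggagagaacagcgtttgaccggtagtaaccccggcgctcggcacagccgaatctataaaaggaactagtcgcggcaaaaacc

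The stretches lie at chr13:119690201-119690350 (plus strand) for Hmgcs1, chr13:8885456-8885605 (plus strand) for Idi1, chr5:28071262-28071411 (plus strand) for Insig1 and chr4:53159896-53160045 (minus strand) for Abca1. The RefSeq table held promoters of 6 of the 8 genes, namely Hmgcs1, Idi1, Srebf2, Insig1, Nr1h3 and Abca1, as windows of 250 bases before and 50 after the start. On both strands of those windows, the sterol regulatory element matched in 1 gene, Hmgcs1, whose match began 137 bases before the start. That element matched in 1.24% of all 32851 promoter windows. Of 16 synthesis enzyme genes with a window it matched in 1, and of 7 genes of SREBP control in 0. These strict letters cannot show that the other promoters lack sterol regulatory elements with other letters. The CCAAT box matched in 4 of the 6 genes (37.4% of all windows) and the E box in 2 (7.15%). The LXR direct repeat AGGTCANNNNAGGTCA matched in none of the 6 and in 0.0152% of all windows. That strict repeat matched only 5 of the 32851 windows, and a looser form of it matched 94 (0.286%). A repeat this rare cannot show that the 6 promoters, that of Abca1 included, lack LXR sites with other letters. All of these are matches of letters, not measured binding.

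The libraries held 1541 to 6361 cell barcodes, of which 1516 (sham), 2832 (stroke-isotype), 4662 (anti-VCAM1) and 6209 (anti-VLA4) cells were kept, with 9892316 to 33386331 UMIs per library and a median of 4516.5 to 5466 UMIs per cell. Clusters of cells were named from marker genes. Endothelial-like, microglia-like, border macrophage-like and T cell-like cells numbered at least 50 in every library and were compared. The sham and stroke isotype libraries shared 59 barcodes, 3.83% of the sham barcodes, while other pairs shared 1 to 8, and each result below that changes without shared barcodes is given both ways. The endothelial-like class was spread differently over its clusters: cluster 2 was the largest in sham (230 of 533 cells) and in stroke-isotype (216 of 625), whereas cluster 0, poor in the nuclear RNA Malat1, held 23 and 49 cells there but was the largest with the antibodies, at 590 of 2301 cells for anti-VCAM1 and 810 of 2981 for anti-VLA4. The largest microglia-like cluster was 4 in every library but anti-VLA4, where it was 3. Levels are UMIs of a gene divided by all UMIs of the class, scaled to a common total (CPM). The 10 endothelial markers summed to 23893 to 24548 CPM in endothelial-like cells, and the 11 microglia markers to 15006 to 15858 CPM in microglia-like cells.

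The 2 arms of the pathway ran in opposite order between cell classes in all 4 libraries. Endothelial-like cells had more Hmgcs1, Idi1, Sqle, Srebf2 and Insig1 than microglia-like cells, and microglia-like cells had more of both transporters. Other genes of the same arms did not all follow this order. Pltp and Abca7, also of lipid export, were higher in endothelial-like cells in every library. Mbtps2, also of SREBP control, was higher in microglia-like cells in every library. Idi1 in endothelial-like cells was 40.1 CPM in sham, 35.9 in stroke-isotype, 46.1 under anti-VCAM1 and 56.3 under anti-VLA4. In microglia-like cells it was 3.32, 3.44, 3.28 and 3.51 CPM, so the lowest endothelial-like library lay far above the highest microglia-like one. The ratio was 10.4-fold to 16.0-fold across libraries.

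Hmgcs1 in endothelial-like cells was 40.4, 41.6, 41.3 and 43.5 CPM in the same order, the most even series of the 8 genes. In microglia-like cells it was 20.3, 15.5, 11.1 and 13.4 CPM, highest in sham. Endothelial-like cells thus had 1.99-fold to 3.72-fold more. Sqle was low everywhere, at 7.14 to 10.3 CPM in endothelial-like cells and 0.430 to 1.37 CPM in microglia-like cells, where the 4 libraries gave 7, 4, 9 and 12 UMIs. The ratio between the classes, 5.23-fold to 19.7-fold, is therefore imprecise.

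Srebf2, the master regulator of these enzymes, followed the same order, at 81.3, 63.0, 60.2 and 59.7 CPM in endothelial-like cells and 20.7, 21.1, 19.3 and 18.1 CPM in microglia-like cells. Insig1, the sterol-sensing brake, was 32.5, 34.2, 33.7 and 41.9 CPM in endothelial-like cells and 11.3, 13.7, 9.03 and 8.96 CPM in microglia-like cells. The class ratio was 2.99-fold to 3.93-fold for Srebf2 and 2.50-fold to 4.68-fold for Insig1. Neither gene's ranges overlapped between the 2 classes.

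Abca1, which loads cholesterol onto lipid-poor apolipoproteins, had its highest level in microglia-like cells, at 363, 407, 418 and 436 CPM. In endothelial-like cells it was 46.0, 49.0, 37.8 and 30.4 CPM. Microglia-like cells had 7.88-fold to 14.4-fold more. Abcg1, which passes cholesterol on to more mature particles, was 68.9, 78.8, 84.6 and 82.4 CPM in microglia-like cells and 17.4, 18.0, 16.99 and 15.3 CPM in endothelial-like cells, a ratio of 3.95-fold to 5.38-fold. After thinning each cell to 1000 UMIs, 30.04% to 34.6% of microglia-like cells still had an Abca1 UMI, against 2.92% to 5.79% of endothelial-like cells. Without thinning, the shares were 76.2% to 79.5% and 12.04% to 16.0%, and the median depths were 5196.5 to 7341.5 and 3893 to 4466 UMIs.

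Free RNA from microglia can put transporter UMIs into other droplets, so Abca1 was set beside the microglia markers in the same cells. Microglia-like cells had 22.9 to 28.1 Abca1 UMIs per 1000 UMIs of the 11 microglia markers. Endothelial-like cells had 558 in sham, 140.0 in stroke-isotype, 255 under anti-VCAM1 and 227 under anti-VLA4. The endothelial-like ratio was thus several times the microglial one in every library, and lowest in stroke-isotype, where microglia markers summed to 350 CPM against 82.5, 148 and 134 CPM in the other libraries.

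**Figure D1:**
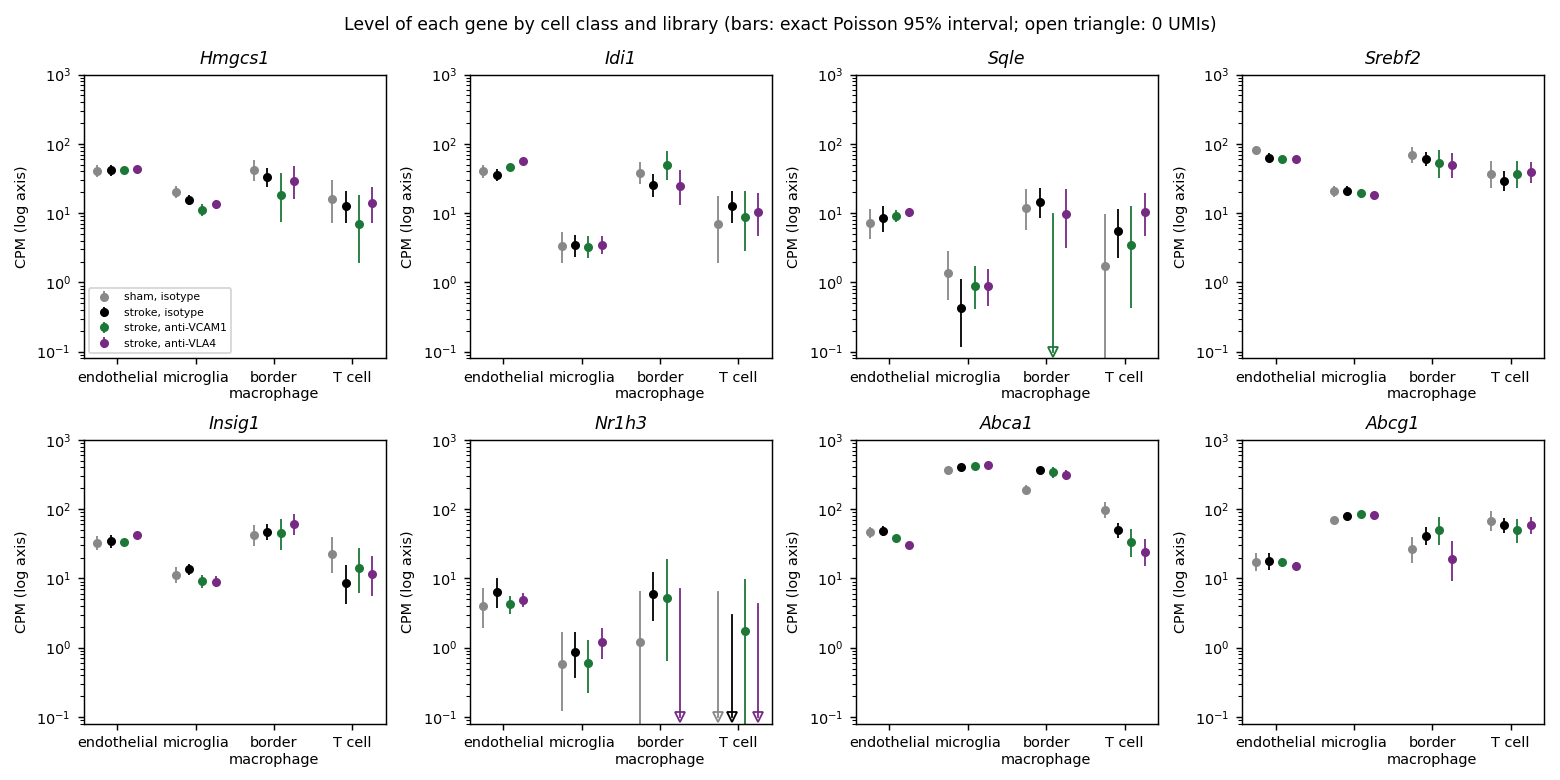
CPM of the 8 genes (log axis) in 4 cell classes, with 1 point per library in the order sham, stroke-isotype, anti-VCAM1 and anti-VLA4, and bars for exact Poisson 95% intervals. Idi1 lies between 35.9 and 56.3 CPM in endothelial-like cells and between 3.28 and 3.51 in microglia-like cells, while Abca1 shows the opposite order.

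Border macrophage-like cells, the phagocytes of meninges and perivascular spaces, combined both arms. Their Abca1 was 191 CPM in sham, 363 in stroke-isotype, 340.0 under anti-VCAM1 and 312 under anti-VLA4, below the microglia-like level in every library. Their Srebf2 was 69.3, 60.6, 52.7 and 49.7 CPM and their Insig1 41.8, 46.9, 44.8 and 61.2 CPM, ranges that overlapped those of endothelial-like cells. Idi1 was 38.2, 25.6, 50.1 and 24.9 CPM, which also overlapped the endothelial-like range and exceeded the microglia-like level 7.09-fold to 15.3-fold. Hmgcs1, at 18.4 to 41.8 CPM, overlapped both neighbours in the order of classes.

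T cell-like cells had little Hmgcs1, Idi1 and Sqle but Abcg1 at 68.3, 58.5, 49.3 and 58.8 CPM, between the microglia-like and the border macrophage-like medians. Other synthesis genes were not low there, such as Lbr at 72.2 to 115 CPM and Ebp at 54.2 to 65.1 CPM. T cell-like cells had 20.5 to 138 Abcg1 UMIs per 1000 microglia marker UMIs against 4.34 to 5.34 in microglia-like cells. For Abca1 the T cell-like values were 29.5, 47.9, 16.2 and 56.8, below the microglial 26.4 under anti-VCAM1 and above the microglial 22.9, 27.1 and 28.1 in the other libraries.

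Nr1h3, encoding LXRα, was sparse in the compared classes, at 3.97 to 6.34 CPM in endothelial-like cells, 0.585 to 1.19 CPM in microglia-like cells and 0, 0, 1 and 0 UMIs in T cell-like cells. Its highest level was in pericyte-like cells, mural cells of the capillary wall, with 10, 4, 25 and 48 UMIs, or 311 (interval 149 to 572), 68.0 (18.5 to 174), 61.4 (39.7 to 90.6) and 77.8 (57.4 to 103) CPM. Only 10 and 13 pericyte-like cells came from the isotype libraries, so the sham value is loose. The other LXR gene, Nr1h2, encoding LXRβ, was 43.2 to 55.7 CPM in endothelial-like cells and 22.03 to 23.8 CPM in microglia-like cells.

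Among other small classes, astrocyte-like cells (6 to 45 per library) had Hmgcs1 at 188 (97.1 to 328), 76.3 (38.1 to 136), 121 (67.6 to 199) and 121 (79.2 to 178) CPM, with every interval above the highest microglia-like value. B cell-like cells (15 to 87 per library) had Abca1 at 76.9, 149, 220 and 87.3 CPM and Abcg1 at 38.4, 113, 48.2 and 106 CPM. Plasma cell-like cells, absent from the anti-VCAM1 library, gave 0, 1 and 0 Hmgcs1 UMIs and 0 Sqle UMIs in the other libraries. These classes entered no comparison between groups.

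The genes most like each of the 8 over the 16 class and library sums were found by Pearson correlation of log2(CPM + 1) among 9690 genes, as a description. Points of a class share its identity and points of a library its depth. Abca1 was closest to Picalm (r = 0.98), an endocytic adaptor gene, and was also close to Man1c1. Abcg1 was closest to Gem, Clcf1 and B3galt5. Insig1 had the sterol demethylase gene Cyp51 among its closest 3 (r = 0.94), with Cpne2 and Myof. Srebf2 and Idi1 shared Cd93 and Sh3bgrl among their closest 3 and correlated with each other (r = 0.94). Hmgcs1 was closest to Oasl2, Utp14b and Mcc, and Sqle to the interferon-induced genes Ifit3, Rsad2 and Iigp1. The genes close to Nr1h3 included Pomgnt1 and Kctd5. Abcg1 ran against the synthesis arm, with r between -0.71 and -0.86 for Hmgcs1, Idi1, Sqle and Srebf2. Abca1 did so less, with r of -0.13, -0.41, -0.54 and -0.46 for the same genes in that order.

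Within endothelial-like cells the 2 transporters had different distributions over clusters. Cluster 5 and cluster 12 were led by arterial genes such as Bmx, Sema3g, Mgp and Gkn3. Over all 4 libraries Abca1 was highest in cluster 5 (56.3 CPM, interval 50.9 to 62.1) and cluster 12 (46.9, 39.3 to 55.5), and lowest in cluster 0 (17.9, 14.7 to 21.6). Cluster 5 had 68.7, 67.3, 61.9 and 48.2 CPM in sham, stroke-isotype, anti-VCAM1 and anti-VLA4, and cluster 12 had 34.5, 89.5, 43.8 and 48.1 CPM, so cluster 12 was the higher in stroke-isotype (from 7 UMIs). Cluster 0, at 19.9, 29.8, 15.9 and 18.6 CPM, was the lowest of the 6 in each library. Abcg1 was lowest in the same arterial clusters, at 6.84 (5.04 to 9.07) and 1.75 CPM (0.568 to 4.08), against 28.1 (24.4 to 32.3) in cluster 2. In each library, Abcg1 in clusters 5 and 12 stayed between 0 and 8.10 CPM, while cluster 2 ranged from 23.7 to 33.3 CPM. Hmgcs1 was more even, at 38.7 to 46.7 CPM over the 6 endothelial-like clusters. None of the 8 genes was used for clustering.

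In microglia-like clusters, over all 4 libraries, Abca1 ranged from 309 CPM in cluster 8, led by Cst3 and Tyrobp, to 579 in cluster 6, rich in Malat1. Hmgcs1 was 4.92 CPM in cluster 6 and 5.88 in cluster 9, also rich in Malat1, from 13 and 15 UMIs, against 14.4 to 28.6 CPM in the other microglia-like clusters. Insig1 was 21.8 CPM (interval 16.7 to 28.0) in cluster 14, the highest pooled value but one carried by stroke-isotype, and 14.9 CPM (10.5 to 20.4) in cluster 9. Cluster 14 was led by Fabp5, Cst7 and Apoe, genes of lipid-handling, disease-associated microglia.

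**Figure D2:**
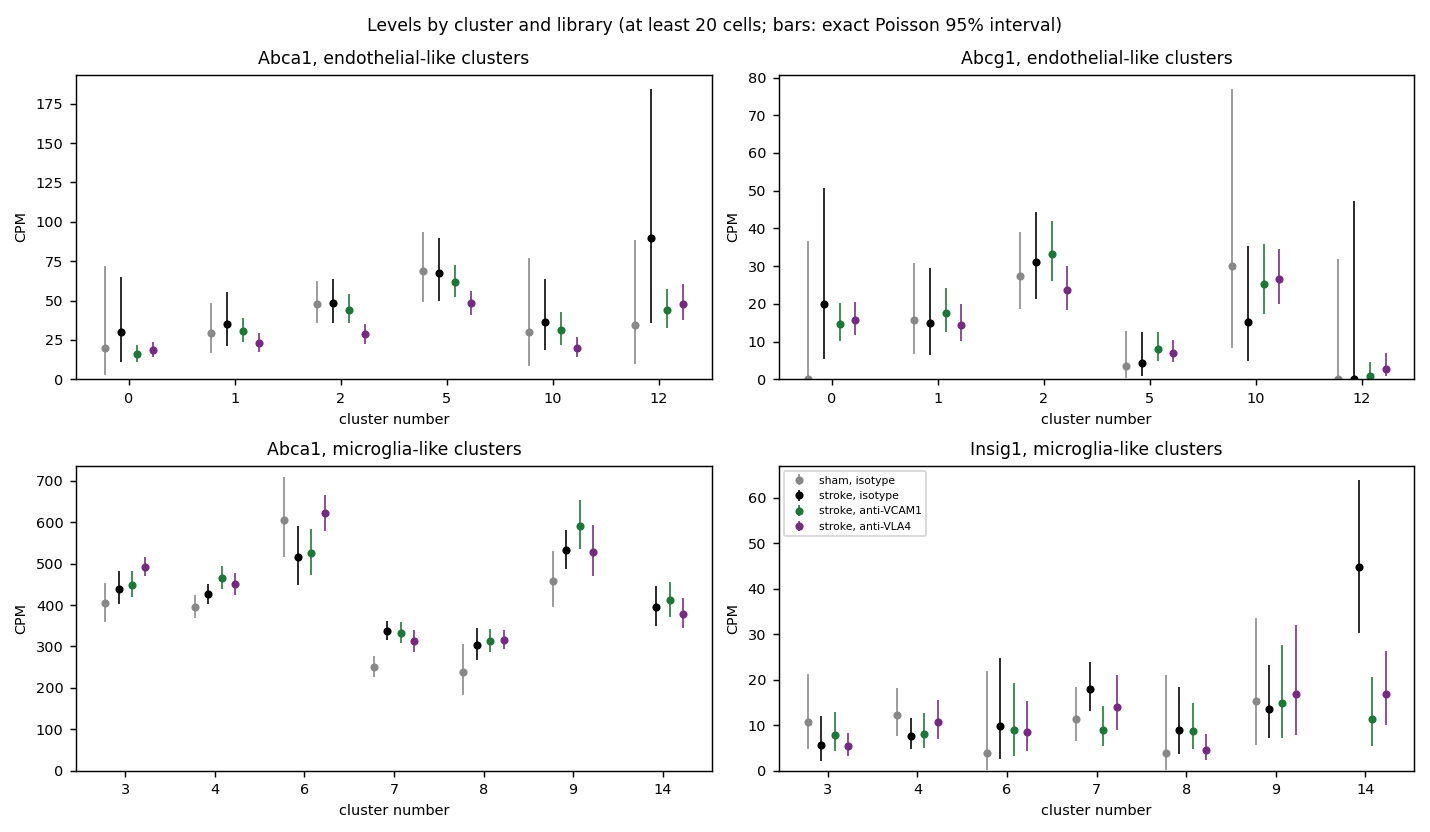
CPM by cluster and library for clusters with at least 20 cells of a library, with exact Poisson 95% intervals: Abca1 and Abcg1 in endothelial-like cells, Abca1 and Insig1 in microglia-like cells. Abcg1 stays at or below 8.10 CPM in endothelial-like clusters 5 and 12, and Insig1 in microglia-like cluster 14 is 44.7 CPM in stroke-isotype.

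The stroke comparison asked what differs 10 weeks into isotype treatment between stroke and sham cortex. In endothelial-like cells, 6 of the 8 genes had the 50 UMIs over both libraries needed to be counted, and 0 of the 6 differed by 1.5-fold, against 6.33% of all 8888 genes counted. Srebf2 had the largest ratio of the 6, with 205 UMIs in sham and 179 in stroke, or 81.3 and 63.0 CPM, a log2 ratio of -0.37 (interval -0.66 to -0.07). The enzymes Hmgcs1 (0.04, -0.36 to 0.44) and Idi1 (-0.16, -0.57 to 0.25) and the transporters Abca1 (0.09, -0.28 to 0.46) and Abcg1 (0.04, -0.57 to 0.66) all had intervals that held 0.

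In microglia-like cells, 5 of the 8 genes were counted and 0 differed by 1.5-fold in stroke, against 5.26% of 10677 genes. Abca1 was slightly higher in stroke (log2 0.17, 0.09 to 0.25), as was Abcg1 (0.19, 0.01 to 0.38). Hmgcs1 was lower (-0.39, -0.76 to -0.01). Without the clusters that had an immediate early gene (Fos, Fosb, Jun, Egr1 or Atf3) among their 10 leading genes (4, 7 and 9), the Abca1 ratio was 0.01. Over all microglia-like cells, the summed level of 14 genes known to respond to tissue dissociation was 16553 CPM in sham and 13528 in stroke. Their part in the Abca1 difference was otherwise not tested.

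Some genes of lipid carriage and storage were past 1.5-fold in the same cells. Apoe in microglia-like cells was 275 CPM in sham and 1444 in stroke-isotype, a log2 ratio of 2.39 (2.31 to 2.47), and 1951 and 1626 CPM under anti-VCAM1 and anti-VLA4. Cluster 14, with Apoe among its leading genes, held 8 of 692 sham and 76 of 1479 stroke-isotype cells, and its part in the Apoe ratio was not tested. Plin2, which coats lipid droplets, was 12.9 and 21.6 CPM (0.75, 0.34 to 1.17), the 1 of 4 counted storage genes past 1.5-fold. Lpl, encoding lipoprotein lipase, was 2.34 and 15.8 CPM from 12 and 147 UMIs (2.75, 1.91 to 3.74). Fdft1, the squalene synthase gene, was also past 1.5-fold (1.16, 0.38 to 2.02), from 17 and 69 UMIs. In that comparison Lpl and Fdft1 were outside the rule for named genes and were singled out after their values were seen. Of the 8 genes of the efflux and lipoprotein list, 6 were counted and 2 were past 1.5-fold higher, with a median log2 ratio of 0.30 against -0.04 for all genes counted. Of all genes counted in this comparison, 5.26% were past 1.5-fold either way.

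In border macrophage-like cells both transporters were past 1.5-fold higher in stroke. Abca1 was 160 UMIs (191 CPM, interval 163 to 223) in 113 sham cells and 425 UMIs (363 CPM, 329 to 399) in 187 stroke cells, a log2 ratio of 0.92 (0.66 to 1.19). Abcg1 was 26.3 and 40.9 CPM from 22 and 48 UMIs (0.64, -0.12 to 1.44). These were the 2 of 6 counted genes past 1.5-fold, against 11.3% of 5507 genes. The Abca1 ratio was 1.14 without shared barcodes, 1.06 in cells with no UMI of 4 microglia markers (P2ry12, Tmem119, Siglech and Sall1), 0.61 when cells weighed alike and 0.54 with coarser clusters, so it was higher in stroke throughout but not always past 1.5-fold. The Abcg1 ratio was 0.18 with coarser clusters and 1.24 without shared barcodes. Summed microglia markers were 4681 CPM in sham and 4712 CPM in stroke in this class. Abcg1 per 1000 microglia marker UMIs was 5.62 in sham and 8.69 in stroke-isotype, against 4.34 and 5.25 in microglia-like cells. For Abca1 the values were 40.8 and 76.9, against 22.9 and 27.1. Leaving out cells with a UMI of the 4 microglia markers removed 73 of 113 sham and 134 of 187 stroke-isotype cells. The part of free microglial RNA in these ratios was not tested further.

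T cell-like cells gave the opposite direction for Abca1, with 56 UMIs (98.1 CPM) in sham and 63 UMIs (49.8 CPM) in stroke-isotype, a log2 ratio of -0.98 (-1.52 to -0.43). It was 1 of 3 counted genes past 1.5-fold, against 23.3% of 5376 genes, of which 30.5% were higher, or 42.8% by TMM factors and 49.4% by a total without mitochondrial, ribosomal and haemoglobin genes and Malat1. In sham 22 of the 56 UMIs lay in 1 cell. Microglia markers summed to 3328 CPM in the sham T cell-like cells against 1039 in stroke. The ratio was 0.23 without barcodes shared between libraries and 1.70 in cells without microglia marker UMIs, so its direction depended on which cells were included. Abcg1, higher in T cell-like than in endothelial-like cells in every library, had a log2 ratio of -0.22 (-0.80 to 0.37).

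**Figure D3:**
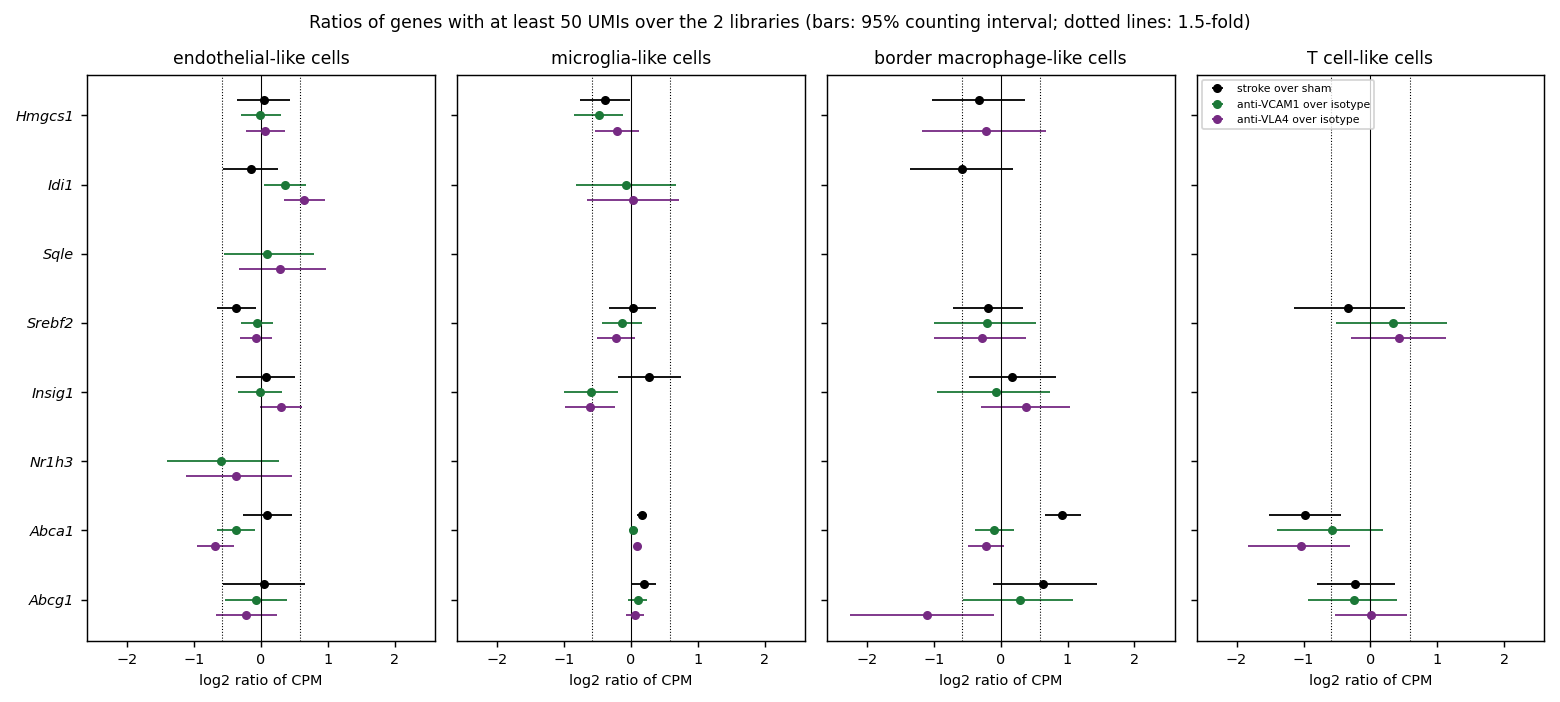
Log2 ratios of CPM for genes with at least 50 UMIs over both libraries, in 4 cell classes, for stroke over sham and for each antibody over stroke-isotype, with 95% counting intervals and dotted lines at 1.5-fold. Most points lie within the dotted lines, and border macrophage-like Abca1 in stroke lies at 0.92.

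The antibody comparisons set anti-VCAM1 and anti-VLA4 against the same stroke isotype library, so a chance shift in that library enters both. In endothelial-like cells all 8 genes were counted in each. Under anti-VLA4, 2 of 8 were past 1.5-fold, against 11.9% of 10828 genes, and under anti-VCAM1 1 of 8, against 10.3% of 10494 genes. Of all genes past 1.5-fold, 23.4% were higher under anti-VLA4 and 26.4% under anti-VCAM1, or 41.8% and 43.1% with TMM factors in place of the total.

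Idi1 was the synthesis gene that differed, at 102 UMIs in stroke-isotype, 526 under anti-VCAM1 and 893 under anti-VLA4, or 35.9, 46.1 and 56.3 CPM. Its log2 ratio was 0.36 (0.05 to 0.68) under anti-VCAM1 and 0.65 (0.35 to 0.96) under anti-VLA4, the latter past 1.5-fold. Under anti-VLA4 the level was higher in 6 of 6 endothelial-like clusters, though nearly equal in arterial cluster 5 (48.7 and 48.8 CPM), against 30.3 and 60.5 CPM in the interferon-marked cluster 10. The anti-VLA4 ratio was 0.48 to 0.76 over the 16 alternatives run, below 1.5-fold when cells were thinned (0.48) or once the trend with gene span was removed (0.53). Hmgcs1 beside it was 41.6 CPM in stroke-isotype and 43.5 under anti-VLA4 (0.06, -0.22 to 0.36), Sqle 8.45 and 10.3 (0.29, -0.33 to 0.97) and Insig1 34.2 and 41.9 (0.29, -0.01 to 0.62).

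Across the 21 synthesis enzymes, 20 were counted in the anti-VLA4 comparison, of which 1 was past 1.5-fold (Idi1) and 15 lay above 0, with a median log2 ratio of 0.14. Of all genes counted there, 41.9% lay above 0, with a median of -0.08. The mevalonate kinase gene Mvk was 13.4 and 19.0 CPM (0.50, 0.01 to 1.03). Under anti-VCAM1 11 of 20 lay above 0 and the median was 0.02, against 42.7% and -0.07 for all genes counted. Of the 7 SREBP genes, Mbtps2, which encodes a protease that releases SREBP, had 29.6 CPM in stroke-isotype, 19.8 under anti-VCAM1 (-0.58, -0.95 to -0.20) and 18.5 under anti-VLA4 (-0.68, -1.03 to -0.31), the latter past 1.5-fold.

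Abca1 was lower in endothelial-like cells with both antibodies. In the same cells the 9 pericyte markers summed to 136 CPM in stroke-isotype, 242 under anti-VCAM1 and 259 under anti-VLA4. The 11 microglia markers summed to 350, 148 and 134 CPM in the same order. The part of either in the endothelial-like ratios was not tested, apart from leaving out cells with microglia marker UMIs. Leaving out cells does not subtract free RNA from the others. Abca1 had 139 UMIs (49.0 CPM, interval 41.2 to 57.8) in stroke-isotype, 432 UMIs (37.8, 34.3 to 41.6) under anti-VCAM1 and 482 UMIs (30.4, 27.7 to 33.2) under anti-VLA4. The log2 ratios were -0.37 (-0.65 to -0.09) and -0.69 (-0.96 to -0.41). The level was lower in 6 of 6 clusters in both comparisons, and in the largest cluster of the isotype libraries, cluster 2, it was 48.3, 44.2 and 28.5 CPM. The anti-VLA4 ratio was -0.58 without cluster 0, just under 1.5-fold, and -0.48 with marked doublets kept. Abca1 spans 129 kb, longer than 93.8% of genes, and the antibody ratios had a trend with gene span: with that trend removed the ratios were -0.05 and -0.34, the latter no longer past 1.5-fold. In endothelial-like cells with no UMI of the 4 microglia markers they were -0.38 and -0.64.

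Abcg1, spanning 60.3 kb, was 18.0, 16.99 and 15.3 CPM in stroke-isotype, anti-VCAM1 and anti-VLA4, with log2 ratios of -0.08 (-0.53 to 0.39) and -0.23 (-0.67 to 0.23). Nr1h3 had 18, 48 and 78 UMIs, or 6.34, 4.20 and 4.91 CPM. Its ratio under anti-VCAM1, -0.59 (-1.40 to 0.28), was the 1 past 1.5-fold in that comparison and its interval held 0. Apoe and Pltp, encoding phospholipid transfer protein, were abundant in endothelial-like cells of every library, at 647 to 834 CPM and 2511 to 3069 CPM.

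In microglia-like cells 6 of the 8 genes were counted in each antibody comparison and Insig1 was the 1 past 1.5-fold in both, against 3.44% of 11167 genes under anti-VCAM1 and 5.3% of 11391 genes under anti-VLA4, of which 48.7% were higher, or 35.7% by TMM factors. It had 127 UMIs (13.7 CPM, interval 11.4 to 16.2) in stroke-isotype, 91 UMIs (9.03, 7.27 to 11.1) under anti-VCAM1 and 120 UMIs (8.96, 7.43 to 10.7) under anti-VLA4, next to 58 UMIs (11.3, 8.59 to 14.6) in sham. The log2 ratios were -0.60 (-1.0005 to -0.20) and -0.61 (-0.98 to -0.24). The stroke isotype library was the high one, and its interval overlapped that of sham.

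The Insig1 difference was not spread evenly over microglia. In cluster 14 it was 30 UMIs (44.7 CPM, 30.2 to 63.8) in 76 cells of stroke-isotype, 10 UMIs (11.2, 5.39 to 20.7) in 104 cells under anti-VCAM1 and 19 UMIs (16.8, 10.1 to 26.2) in 152 cells under anti-VLA4. In cluster 7 it was 17.9, 8.99 and 13.9 CPM, and in cluster 9 it was 13.5, 15.0 and 16.9 CPM. Without clusters 4, 7 and 9 the ratios were -0.85 and -1.14. Thinned to 1000 UMIs per cell they were 0.20 and 0.15, from 14, 20 and 26 UMIs. The dissociation genes summed to 13528 CPM in stroke-isotype, 10712 under anti-VCAM1 and 9056 under anti-VLA4, and their part in the Insig1 difference was otherwise not tested.

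None of the counted synthesis genes was past 1.5-fold in microglia-like cells. Hmgcs1 was 15.5, 11.1 and 13.4 CPM in stroke-isotype and under the VCAM1 and VLA4 antibodies (-0.48, -0.85 to -0.11, and -0.21, -0.54 to 0.12), and Idi1 was 3.44, 3.28 and 3.51 CPM. Of the synthesis enzymes, 0 of 16 under anti-VCAM1 and 0 of 17 under anti-VLA4 were past 1.5-fold, with medians of 0.04 and 0.03 against 0.04 and 0.06 for all genes counted.

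Microglial transporters were close to their stroke level with both antibodies. Abca1 was 407, 418 and 436 CPM (0.04, -0.02 to 0.10, and 0.10, 0.04 to 0.16), and Abcg1 was 78.8, 84.6 and 82.4 CPM (0.10, -0.04 to 0.25, and 0.07, -0.07 to 0.20). Every interval lay within 1.5-fold. Of their list, Pltp was 4.62, 14.5 and 15.8 CPM (1.65, 1.15 to 2.17, and 1.78, 1.30 to 2.28). Endothelial markers in the same microglia-like cells summed to 45.7, 119 and 120 CPM, and Pltp per 1000 endothelial marker UMIs was 101, 121 and 132, against 118, 125 and 122 in endothelial-like cells. Lpl was 15.8, 20.7 and 9.26 CPM, a log2 ratio of -0.77 (-1.13 to -0.42) under anti-VLA4 and 0.39 (0.08 to 0.71) under anti-VCAM1.

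**Figure D4:**
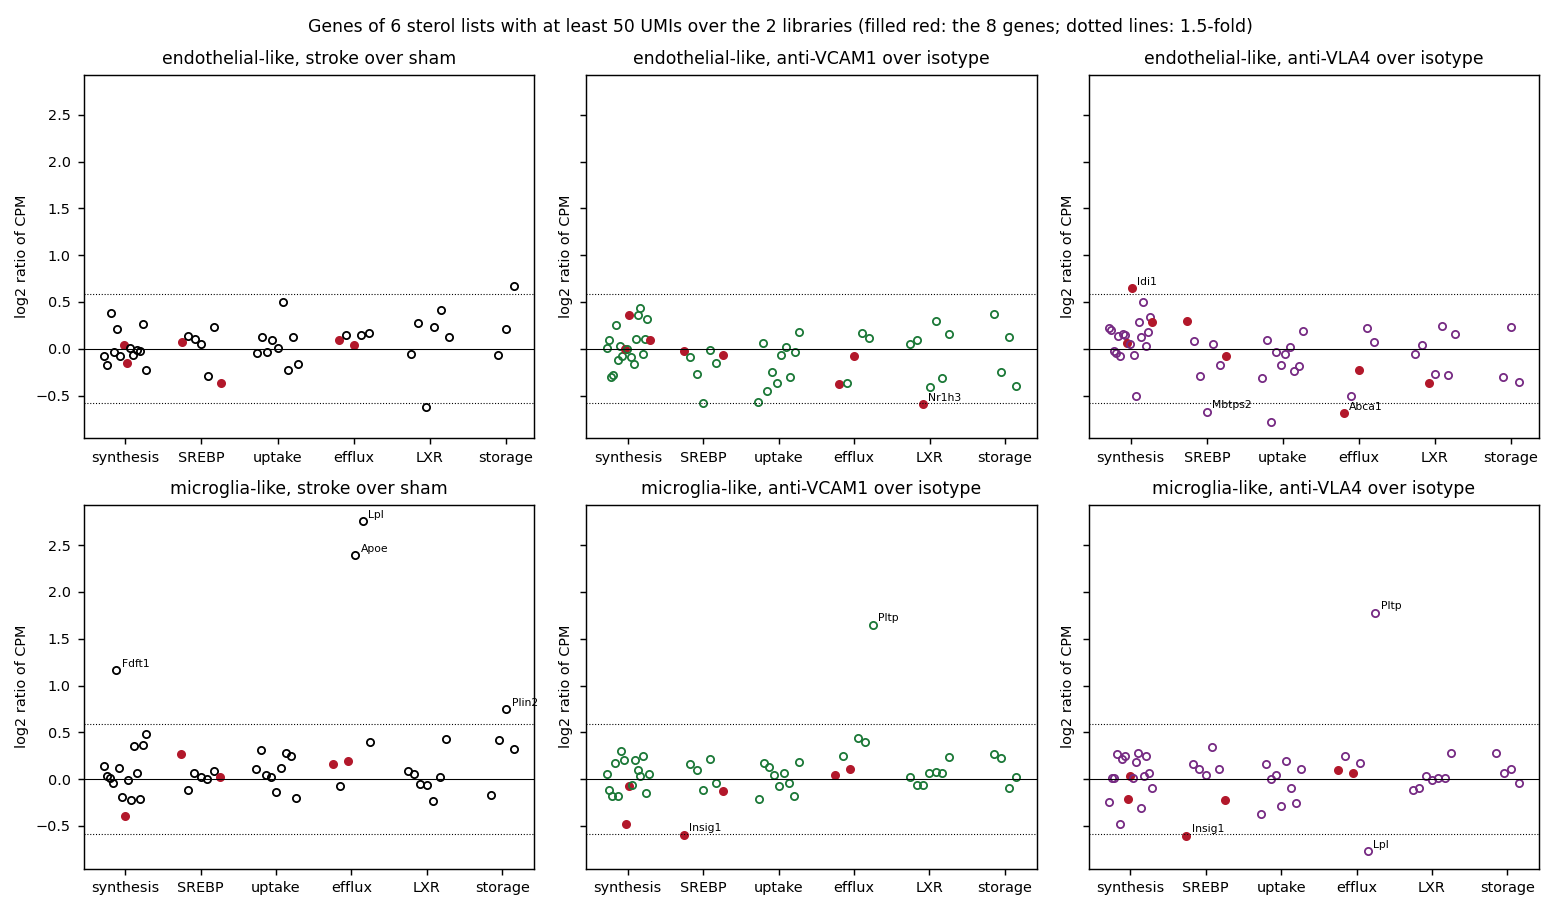
Log2 ratios of the genes of 6 sterol lists with at least 50 UMIs (apart from genes not reported here), in endothelial-like (upper) and microglia-like cells (lower), for the 3 comparisons, with the 8 genes in filled red and names at the genes past 1.5-fold that the text describes. Apoe at 2.39 and Lpl at 2.75 stand out in microglia-like cells after stroke, and Insig1 lies past 1.5-fold lower in the same cells under anti-VCAM1.

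In border macrophage-like cells, 0 of 4 counted genes were past 1.5-fold under anti-VCAM1 (15.3% of 4700 genes) and 1 of 5 under anti-VLA4 (18.6% of 4998 genes). That gene was Abcg1, at 48 UMIs in stroke-isotype and 10 under anti-VLA4, or 40.9 and 19.1 CPM (-1.10, -2.25 to -0.10), and -0.15 in cells with no UMI of the 4 microglia markers. Abca1 was 363, 340.0 and 312 CPM, with intervals of both ratios holding 0, but -1.95 under anti-VLA4 in cells without microglia marker UMIs. That setting left out 134 of 187 stroke-isotype and 54 of 90 anti-VLA4 cells, so both of its values rest on few cells. Of the 21 synthesis enzymes, 5 were counted under anti-VLA4 and 3 were past 1.5-fold higher. Their median log2 ratio was 0.74, against -0.04 for all genes counted. Under anti-VCAM1 0 of 4 were past 1.5-fold, with a median of 0.25. Microglia markers summed to 4712, 5278 and 3386 CPM and endothelial markers to 40.9, 382 and 2429 CPM in these cells, and the part of either in the ratios was not tested further.

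In T cell-like cells, 0 of 3 counted genes were past 1.5-fold under anti-VCAM1 (15% of 5238 genes) and 1 of 3 under anti-VLA4 (14.8% of 5630 genes, of which 27.9% were higher, or 38.0% by TMM factors). Abca1 was 49.8, 33.4 and 24.2 CPM from 63, 19 and 21 UMIs, with log2 ratios of -0.57 (-1.40 to 0.18) and -1.04 (-1.83 to -0.31). Microglia markers summed to 1039, 2070 and 426 CPM, and the anti-VLA4 ratio was -0.27 with marked doublets kept and -0.21 in cells without microglia marker UMIs. Abcg1 was 58.5, 49.3 and 58.8 CPM, with ratios of -0.25 and 0.01 whose intervals held 0.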

How the data were processed

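Counts were summed from 4 droplet libraries (3′ chemistry, v3.1), grouped by sample title. The authors deposited 1 matrix of raw counts (UMIs) for each library, and per the file headers Cell Ranger 7.0.1 wrote them. The submitters' processing notes name Cell Ranger 6.0.0, Seurat 4.3.0.1, mm10 and GRCh38 without roles, and whether intronic reads were counted is not given in the sources used here. The 8 genes, the pathway lists and the markers were chosen with earlier results of these data known.

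Cells with at least 500 UMIs, 200 genes and at most 10% mitochondrial UMIs were kept, and Scrublet (expected rate 0.05) marked 9, 24, 58 and 124 doublets (0.590% to 1.96%), which were left out. Clustering in scanpy 1.11.5 used 2000 variable genes without the 8 genes or the lists, 30 components, 15 neighbours and Leiden resolution 1. A cluster took a class with at least 3 markers detected in 25% of its cells at a log2 fold of 1 or more over cells of other classes. It stayed unnamed with 5 detected markers of a second class, or when shallow with no own marker among its leading 10 genes, rules not fixed together with the markers. The 3 unnamed clusters (15, 16 and 17) held 4.62%, 5.01%, 5.56% and 4.77% of kept cells (sham, stroke-isotype, then the VCAM1 and VLA4 antibodies), and were led by pericyte genes with endothelial markers, by Il1r2 and Cd209a, and by a shallow endothelial profile. Microglia-like clusters 4, 7 and 9 had immediate early genes among their 10 leading genes, and interferon genes led clusters 10 and 21.

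CPM is a class's UMIs of a gene over all its UMIs. Genes with at least 50 UMIs over both libraries were counted, and past 1.5-fold means a ratio beyond 1.5 either way. Named genes were the 8, up to 2 per list, comparison and class with the largest ratio among those with at least 200 UMIs, and for likeness the 3 closest genes of at least 20 CPM somewhere. Alternatives numbered 17 set with the design and 4 added after the data were seen (shared barcodes, Malat1 clusters, clusters with immediate early genes, cells with microglia marker UMIs). TMM factors came from edgeR 4.0.16, gene spans from GENCODE M21 (99.8% of genes matched) and promoters from RefSeq. The ratio and interval code was tested on simulated counts. Some genes are not reported here.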

Additional observations from a re-analysis of the deposited data

Results flagged for a closer look

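Abca1 stood past 1.5-fold in opposite directions in 2 cell classes of the stroke comparison: the log2 ratio of stroke over sham was 0.92 in border macrophage-like cells and -0.98 in T cell-like cells. The difference between the classes was not tested, since each class has 1 library per group. The border macrophage-like ratio was above 0 in all 15 alternatives for which it could be computed (0.54 to 1.14). The T cell-like ratio ranged from -1.33 to 3.49, and 3 of its 15 alternatives turned its direction.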

How the results depend on the processing

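No paired analysis was possible because each group had 1 library, so leaving out a replicate was not possible either. Over 63 log2 ratios of the 8 genes, 980 values under alternative settings were computed: 927 stayed within the counting interval of the reported ratio, 47 left it and 6 turned the direction of a ratio past 1.5-fold. Those 6 were Nr1h3 in endothelial-like cells under anti-VCAM1 when thinned (0.79, from 2 and 13 UMIs), Insig1 in microglia-like cells when thinned (0.20 and 0.15), and Abca1 in T cell-like cells in stroke when cells were named on their own markers (3.49), without shared barcodes (0.23) and without microglia marker UMIs (1.70). Thinning moved 21 ratios and naming cells on their own markers 10, while finer clusters, the stricter cell filter, the fixed cluster mix and the other total were among the settings that moved 0.

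The count of genes past 1.5-fold changed in several settings. In endothelial-like cells in stroke (0) it was 1 at the lower fold set as an alternative, with at least 20 UMIs and when thinned. Under anti-VCAM1 (1) it was 3 at the lower fold, 2 when thinned, and 0 at 2-fold, with at least 200 UMIs, coarser clusters, cells named on their own markers, doublets kept, the other total, TMM factors, a pseudocount, without the highest cell or without the Malat1 clusters. Under anti-VLA4 (2) it was 3 at the lower fold, 1 with cells named on their own markers, doublets kept or without the Malat1 clusters, and 0 at 2-fold or with the span trend removed. In microglia-like cells in stroke (0) it was 1 at the lower fold and without clusters 4, 7 and 9. Under anti-VCAM1 (1) it was 2 at the lower fold or with the cluster mix fixed, and 0 at 2-fold or with a pseudocount. Under anti-VLA4 (1) it was 2 with cells named on their own markers, and 0 at 2-fold, with doublets kept, cells weighed alike, the cluster mix fixed or a pseudocount. Apart from construction (a lower bar, fewer UMIs), the cause was not tested.

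The 6 sterol lists held 66 genes, of which only those with at least 50 UMIs were counted. In endothelial-like cells (stroke, anti-VCAM1, anti-VLA4) these were 14, 20 and 20 synthesis and 10, 11 and 11 uptake genes. LXR genes there numbered 6, 7 and 7 and storage genes 3, 4 and 3, with 7 SREBP and 5 efflux genes each time. In microglia-like cells 15, 16 and 17 synthesis, 7 SREBP, 10 uptake, 6 efflux, 7 LXR and 4 storage genes were counted. The numbers below are counts of these genes, not shares. Those past 1.5-fold numbered 2, 1 and 4 in endothelial-like cells (stroke, anti-VCAM1, anti-VLA4), against 6.33%, 10.3% and 11.9% of all genes counted. In microglia-like cells they numbered 5, 3 and 4, against 5.26%, 3.44% and 5.3%. At 2-fold they numbered 0, 0 and 0 and 4, 1 and 1, and the share of all genes past 2-fold was not computed. Another total shifted T cell-like stroke ratios by 0.15. Low counts limit Sqle and Nr1h3 in every compared class.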
